A study of Rattus norvegicus with 9 samples.

Results

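In rat pulmonary arterial smooth muscle cells, 49 genes differed strongly between hypoxia and normoxia and lay at nearly the same level when quercetin was added to the hypoxic cells. They were selected on measured values of the deposited log2 table: a mean difference between hypoxia and normoxia of at least 2 on the log2 scale (4-fold), a difference between hypoxia+quercetin and hypoxia under 0.3, and a probe above background on all 3 arrays of the brighter of the hypoxia and normoxia groups. Each gene is represented by 1 probe. Of 15812 genes with a symbol on the array, 652 met the conditions on hypoxia and brightness, 200 higher and 452 lower in hypoxia, and 49 of these met all 3. The 49 comprise 14 genes higher in hypoxia, or 7.0% of those that were higher, and 35 genes lower in hypoxia, or 7.74% of those that were lower. Of the other 603 genes, 551 lay at least 0.3 back towards normoxia with quercetin, 182 of the higher and 369 of the lower ones, and 52 lay at least 0.3 further away, 4 of the higher and 48 of the lower ones. The hypoxia mean enters both differences, so selecting genes on it favours a shift back towards normoxia, by an amount not tested. Lower genes near background in hypoxia also had little room to lie further away.

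The cells, the contractile cells of the lung artery wall, came from male Sprague Dawley rats and were used at culture generation 4. Hypoxia+quercetin cells were kept in a sealed chamber under 1% oxygen and received the plant flavonol quercetin for 24 h at a dose not given in the sources used here. Hypoxia cells were kept under the same 1% oxygen, and normoxia cells in an ordinary incubator. All groups had first gone 24 h without serum, were treated in medium with 10% serum, and the protocol names 0.1% DMSO as the vehicle where quercetin was not given. Each group had 3 arrays, and the labels do not say whether these came from separate cultures or animals, so the spread between them may be technical. The kit in the labels is one for microRNA, whereas the probes are for messenger RNA and the scanning protocol is one for gene expression.

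Low oxygen stabilises the alpha subunits of the hypoxia-inducible factors (HIF), which pair with ARNT proteins and switch on genes of glycolysis, oxygen supply and protein folding in the endoplasmic reticulum. In the lung, unlike in other organs, smooth muscle of the arteries contracts in low oxygen, and under lasting hypoxia it proliferates and lays down matrix. Smooth muscle cells in culture also make chemokines and matrix proteases, and quercetin is known as an antioxidant and kinase inhibitor.

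All values below are log2 scanner signals after subtraction of each array's 75th percentile, so 0 is the level of the probe at that percentile. Levels of different genes are not compared, because probes differ in brightness. The label was first set against the cells' own markers. All 8 smooth muscle marker genes with a named probe were above background on all 9 arrays. Their summed signal was 7.13 to 7.39 with quercetin, 8.64 to 8.71 in hypoxia and 7.55 to 8.31 in normoxia. Of the 8, 4 were higher and 0 lower in hypoxia, and 0 were higher and 6 lower with quercetin, at an adjusted p under 0.05 in limma. Of all 26646 probes tested, 34.6% were higher and 29.7% lower in hypoxia. With quercetin, 27.3% were higher and 31.4% lower. The endothelial markers Pecam1, Tek, Tie1, Emcn and Cldn5, the epithelial markers Epcam, Cdh1 and Krt19 and the leukocyte markers Itgam and Cd3e were not above background on any array. Other markers were detected: 7 of 10 fibroblast, 3 of 9 epithelial and 5 of 10 leukocyte markers were above background on all 9 arrays. Of the 9 endothelial markers, 0 were above background on all 9 arrays, and only the 5 named were above it on none. Cdh5 and Kdr, also endothelial, were tested. Cdh5 differed by 0.64 ± 0.25 in hypoxia (limma adjusted p = 0.0541) and by -1.22 ± 0.25 with quercetin (limma adjusted p = 0.00345). Kdr differed by 0.13 ± 0.21 (limma adjusted p = 0.596) and 0.30 ± 0.21 (limma adjusted p = 0.245). The keratin genes Krt18, Krt7 and Krt8 rose by 4.93 ± 0.51, 3.12 ± 0.17 and 2.15 ± 0.23 in hypoxia, and with quercetin they were lower, at -3.22 ± 0.51, -2.39 ± 0.17 and -1.48 ± 0.23 (log2 difference ± SE, n = 3 per group, each at an adjusted p under 0.05 in limma). The summed epithelial marker signal was 2.91 to 3.20 with quercetin, 5.31 to 5.56 in hypoxia and 1.93 to 2.51 in normoxia, and its part in the results below was not tested. The share of probes above background ran from 53.9% to 68.7% with quercetin, from 53.0% to 66.6% in hypoxia and from 65.0% to 74.3% in normoxia. It was lowest on quercetin replicate 1 and hypoxia replicate 3. Normoxia replicates 1 and 2 were on slide 1, normoxia replicate 3 and the hypoxia arrays on slide 2, and the quercetin arrays on slide 3. Slide and treatment therefore cannot be told apart when quercetin-treated and untreated hypoxic cells are compared. Normoxia replicates 1 and 2 were scanned on day 1 and all other arrays on day 2. Slide and scan day thus also differ in part between hypoxia and normoxia. Only normoxia replicate 3 shared both with the hypoxia arrays.

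The upstream sequences of the genes were searched for the core of the HIF binding motif, ACGTG or GCGTG on either strand, where CACGTG counts on both strands. RefSeq promoter entries, 250 bases before to 50 bases after the gene start in build GRCr8, were found for 36 of the 49 genes. The motif was present in 5 of 9 promoters of genes higher in hypoxia (55.6%), in 8 of 27 promoters of genes lower in hypoxia (29.6%) and in 42.9% of all 27457 promoters. The median GC content was 63.0%, 52.0% and 52.3% in these 3 sets. A match is a stretch of letters and not a measured binding site. The 60-base windows below lie before the gene start and are shown because they hold a match in capitals. Tmem74b, Mapk8ip3, Nog and Kcng2 were higher and Mmp12, Mmp13 and Srsf1 lower in hypoxia.
Tmem74b, chr3:160679765-160679824, plus strand: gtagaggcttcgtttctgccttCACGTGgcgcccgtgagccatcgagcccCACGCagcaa
Mapk8ip3, chr10:14463003-14463062, minus strand: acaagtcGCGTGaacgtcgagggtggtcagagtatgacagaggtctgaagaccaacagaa
Nog, chr10:74627588-74627647, minus strand: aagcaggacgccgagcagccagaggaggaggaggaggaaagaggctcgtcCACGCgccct
Kcng2, chr18:76083879-76083938, minus strand: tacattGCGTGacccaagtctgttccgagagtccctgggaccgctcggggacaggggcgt
Mmp12, chr8:12866477-12866536, plus strand: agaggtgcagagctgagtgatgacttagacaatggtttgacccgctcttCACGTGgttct
Mmp13, chr8:12782655-12782714, plus strand: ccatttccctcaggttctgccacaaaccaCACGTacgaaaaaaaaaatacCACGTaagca
Srsf1, chr10:73336376-73336435, plus strand: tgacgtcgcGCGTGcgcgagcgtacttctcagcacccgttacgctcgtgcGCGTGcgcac
The motif thus occurred among genes of both directions. Mmp12 and Mmp13 are neighbours in a cluster of matrix protease genes, and their starts lie 83823 bases apart on chromosome 8.

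**Figure D1:**
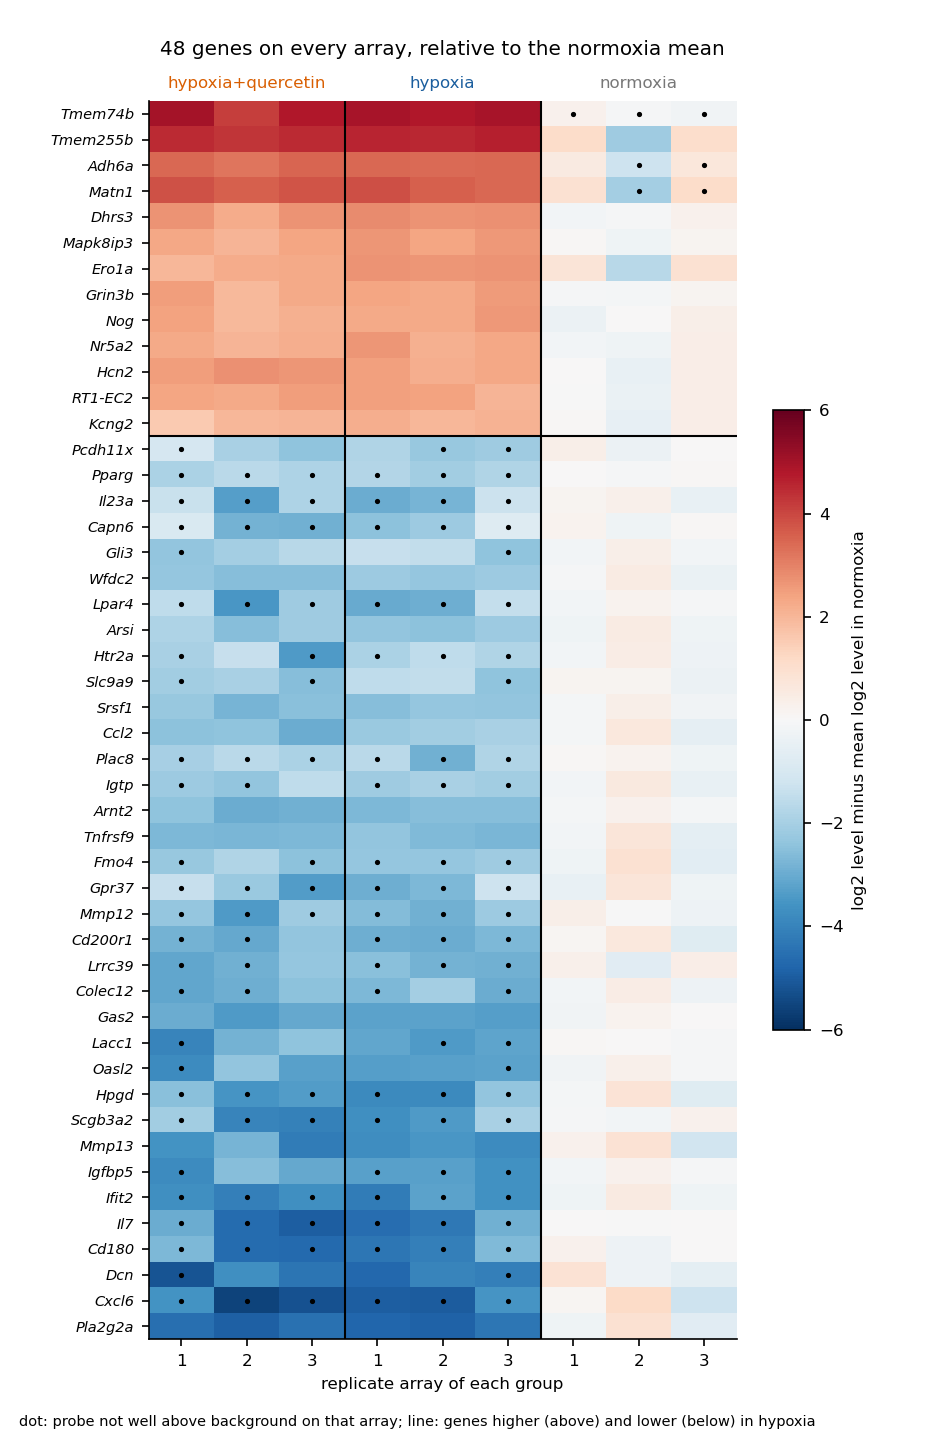
Level of 48 of the 49 genes on the 9 arrays, as colour for the log2 level minus the gene's mean in normoxia; columns are the 3 arrays of hypoxia+quercetin, hypoxia and normoxia, and a dot marks a probe not well above background. The 13 genes above the line are high and the 35 below it low on all 6 hypoxic arrays, and the dots lie almost wholly in the lower block on hypoxic arrays.

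The hypoxia and normoxia arrays did not overlap for any of the 14 higher or the 35 lower genes. The selection used group means, which favours such a separation without fixing it. As background, 1.26% of the 15812 named genes lay at least 2 higher and 2.86% at least 2 lower in hypoxia on the deposited log2 values. In the limma fit of 26646 probes, 34.6% were higher and 29.7% lower in hypoxia than in normoxia at an adjusted p under 0.05. For hypoxia+quercetin against hypoxia, 27.3% of probes were higher and 31.4% lower, and 33.4% of 14564 probes with a symbol and above background differed by less than 0.3. Since the selection used these contrasts, the differences below are given as descriptions with standard errors and intervals from that fit, and without a test.

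Of the 14 higher genes, 11 were above background on all 9 arrays. These 11 lay between 2.08 and 4.59 above normoxia in hypoxia, with a median of 2.38, and their differences between hypoxia+quercetin and hypoxia had a median of -0.20 and ran from -0.51 to 0.32. Of the 35 lower genes, 9 were above background on all 9 arrays. Their hypoxia differences ran from -4.66 to -2.09 with a median of -2.59, and their quercetin differences had a median of -0.11 and ran from -0.53 to 0.15. Over all members, the median measured difference in hypoxia was 2.46 for the 14 and -2.57 for the 35. With the 1 higher and 19 lower genes that were unmeasured in the dimmer group set at their bound (Capn6, which has none, at 0), these medians were 2.46 and -1.89. For the 13 lower genes that were above background on none of the 6 hypoxic arrays, the quercetin difference compares signals near background. On this scale 12 of the 14 and 27 of the 35 also met both thresholds. The quercetin and hypoxia arrays overlapped for 9 of the 14 and 34 of the 35. The quercetin arrays stayed clear of the normoxia arrays for all 14 and all 35, which the selection also favours. The shares of all probes whose arrays overlap or separate in these ways were not computed. The mean with quercetin lay on the normoxia side of the hypoxia mean for 10 of the 14 higher and 16 of the 35 lower genes.

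Small quercetin differences follow from the selection. Their 95% intervals rest on a spread pooled over all 3 groups, so scatter among the normoxia arrays widens them too. Tmem255b, for example, had an SD of 0.11 with quercetin, 0.09 in hypoxia and 1.84 in normoxia. Among the genes above background on all 6 hypoxic arrays, the interval lay within 1 log2 unit of 0 for 10 of the 14 higher and 7 of the 9 lower genes, and it reached further for 4 and 2. On the slide that held hypoxia and normoxia arrays together, the median difference from normoxia replicate 3, the only normoxia array there, was 2.12 for the 14 and -2.24 for the 35. In hypoxia, 8 of the 14 and 24 of the 35 lay at least 2 from that array. It was the normoxia array nearest the hypoxia mean for 12 of the 14 and 22 of the 35. With normexp background correction (offset 50) and quantile normalization together, the median hypoxia differences were 0.86 and -0.56 and 11 of the 49 genes met the selection.

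Ero1a, the endoplasmic reticulum oxidase that drives disulfide bond formation and is a known HIF target, had levels of 5.49, 5.72 and 5.77 with quercetin, 6.17, 6.15 and 6.19 in hypoxia, and 4.26, 1.84 and 4.40 in normoxia. All 3 quercetin arrays lay below all 3 hypoxia arrays and above all normoxia arrays. Hypoxia and normoxia differed by 2.67 ± 0.58 (SE, n = 3 per group), and the difference with quercetin was -0.51, with an interval from -1.84 to 0.82. Normoxia replicate 2 stood apart from the other two, and against normoxia replicate 3 alone the difference in hypoxia was 1.77. A brighter second Ero1a probe differed by 2.42 in hypoxia and by -0.57 with quercetin. On the deposited values, which decided the selection, the quercetin difference of Ero1a was -0.12.

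Ero1a was the only one of the 49 among the HIF target genes listed for comparison. The 49 are few among the 15812 named genes, so few or no members in a list, here and below, is no result about that list. Of the 44 other HIF targets tested, 35 were higher and 1 lower in hypoxia, and with quercetin 5 were higher and 17 lower, at an adjusted p under 0.05 in limma. The median difference of the 44 was 1.35 in hypoxia and -0.65 with quercetin. Plod2, which hydroxylates collagen lysines, rose by 1.31 ± 0.11 in hypoxia (limma adjusted p = 2.21e-05) and fell with quercetin by 0.53 ± 0.11 (limma adjusted p = 0.00308). Stc2, a secreted glycoprotein, rose by 2.22 ± 0.18 (limma adjusted p = 2.15e-05) and fell by 2.58 ± 0.18 with quercetin (limma adjusted p = 1.41e-05). No glycolysis gene was among the 49, and of 22 tested, 21 were higher in hypoxia and 14 lower with quercetin.

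Both retinoid and alcohol dehydrogenases among the 49 were high under hypoxia with and without quercetin. Dhrs3, which reduces retinaldehyde to retinol, had levels of 3.49, 3.01 and 3.47 with quercetin, 3.60, 3.48 and 3.51 in hypoxia, and 0.61, 0.69 and 1.03 in normoxia. The quercetin and hypoxia arrays overlapped and all 6 lay far above normoxia. Hypoxia and normoxia differed by 2.76 ± 0.16, and the difference with quercetin was -0.21, with an interval from -0.57 to 0.15. Adh6a, an alcohol dehydrogenase, had levels of -2.39, -2.61 and -2.33 with quercetin, -2.39, -2.44 and -2.40 in hypoxia, and -5.29, -7.08 and -5.15 in normoxia. Its hypoxic arrays of both groups formed 1 cluster, while only 1 of the 3 normoxia arrays was above background.

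The secreted signalling and matrix proteins in the higher set included Nog and Matn1. Nog encodes noggin, which binds and blocks bone morphogenetic proteins, and its levels were -0.94, -1.42 and -1.22 with quercetin, -1.08, -1.06 and -0.77 in hypoxia, and -3.72, -3.33 and -2.98 in normoxia. The difference in hypoxia was 2.38 ± 0.20, and the groups under hypoxia overlapped. Nog was the only one of the 49 on the list of TGF-beta, BMP and Wnt genes, of which 59 others were tested. Of these, 22 were higher and 16 lower in hypoxia, and 20 were higher and 15 lower with quercetin. Rspo3, an activator of Wnt signalling and the gene on that list with the smallest adjusted p, fell by 3.66 ± 0.17 in hypoxia (limma adjusted p = 2.59e-06) and rose by 1.03 ± 0.17 with quercetin (limma adjusted p = 0.00108).

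Matn1, a cartilage matrix protein, had levels of -2.85, -3.09 and -2.91 with quercetin, -2.80, -3.08 and -3.22 in hypoxia, and -5.73, -8.70 and -5.56 in normoxia. Only 1 normoxia array was above background for Matn1, and replicate 2 lay far below the other two.

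**Figure D2:**
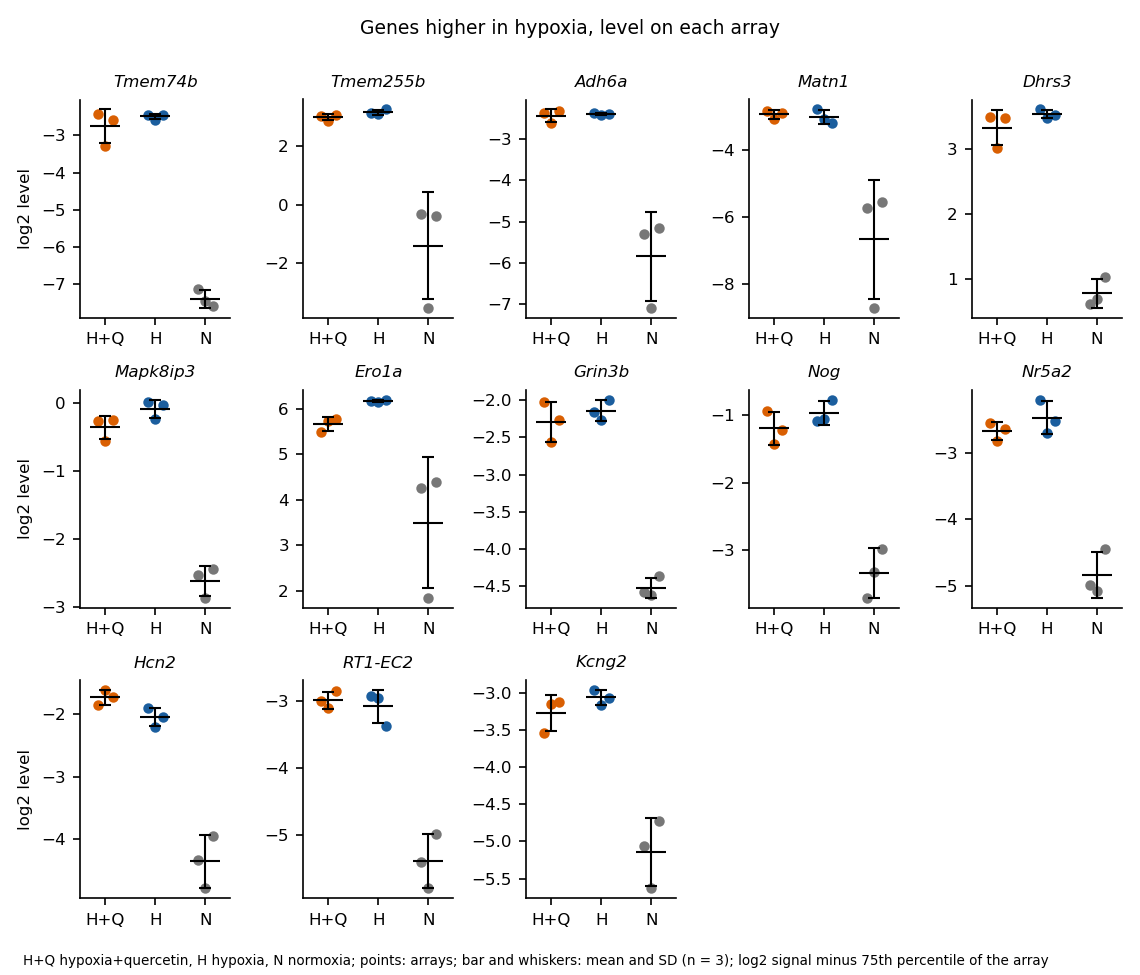
Log2 level of 13 of the 14 genes higher in hypoxia on each array (points), with the mean and SD of 3 arrays (bar and whiskers), for hypoxia+quercetin (H+Q), hypoxia (H) and normoxia (N); each panel has its own scale. In all 13 panels the 6 hypoxic arrays lie above the normoxia arrays, and in Tmem255b, Adh6a, Matn1 and Ero1a normoxia replicate 2 lies well below the other normoxia arrays.

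Tmem255b and Tmem74b are little-studied transmembrane proteins. Tmem255b had levels of 3.04, 2.87 and 3.08 with quercetin, 3.13, 3.10 and 3.27 in hypoxia, and -0.34, -3.55 and -0.38 in normoxia. All 6 hypoxic arrays lay within a narrow band, and normoxia replicate 2 was the lowest array. Tmem255b differed by 4.59 ± 0.74 in hypoxia, and against normoxia replicate 3 alone it was 3.55. Tmem74b had levels of -2.41, -3.27 and -2.58 with quercetin and -2.44, -2.57 and -2.45 in hypoxia, and was not above background on any normoxia array. It was at least 12.5-fold higher in hypoxia than in normoxia, where the normoxia level is taken on each array as the lowest signal among probes above background, or the probe's own where higher.

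Membrane channels formed a further group, put together after their values were seen. Hcn2, a hyperpolarisation-activated cation channel, had levels of -1.85, -1.61 and -1.72 with quercetin, -1.90, -2.20 and -2.04 in hypoxia, and -4.34, -4.79 and -3.95 in normoxia. It had the largest positive quercetin difference of the 14, 0.32, with an interval from -0.13 to 0.77. Grin3b, a glutamate receptor subunit of the NMDA type, had levels of -2.03, -2.57 and -2.26 with quercetin, -2.16, -2.27 and -1.99 in hypoxia, and -4.58, -4.62 and -4.37 in normoxia. Kcng2, a subunit that modifies voltage-gated potassium channels, had levels of -3.55, -3.15 and -3.12 with quercetin, -2.97, -3.16 and -3.07 in hypoxia, and -5.06, -5.63 and -4.73 in normoxia. In Grin3b and Kcng2 the arrays of both hypoxic groups overlapped, in Hcn2 all quercetin arrays lay above the hypoxia arrays, and in all 3 channel genes they lay above every normoxia array. These 3 genes were not on the ion channel list, on which 40 other genes were tested. Of those 40, 20 were higher and 13 lower in hypoxia, and 7 were higher and 19 lower with quercetin.

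Other higher genes were Nr5a2, an orphan nuclear receptor, Mapk8ip3, a scaffold of the JNK pathway and adaptor for motor proteins, and RT1-EC2, a rat class I major histocompatibility gene. Nr5a2 had levels of -2.55, -2.82 and -2.64 with quercetin, -2.20, -2.70 and -2.51 in hypoxia, and -4.99, -5.09 and -4.44 in normoxia. Mapk8ip3 had levels of -0.27, -0.56 and -0.25 with quercetin, 0.02, -0.23 and -0.03 in hypoxia, and -2.53, -2.86 and -2.44 in normoxia. For Mapk8ip3 the quercetin arrays all lay just below the hypoxia arrays, and the quercetin difference was -0.28, with an interval from -0.60 to 0.05. RT1-EC2 belongs to a family of near-identical genes whose transcripts its probes may share, and its difference in hypoxia was 2.30 ± 0.21. The 3 brighter RT1-EC2 probes, above background on all 9 arrays, differed by 1.42, 2.42 and 1.11.

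Genes with a known part in inflammation are described together, a grouping also made after their values were seen. Pla2g2a, a secreted phospholipase A2 of the inflammatory response, had the largest difference of the 9 lower genes measured on all arrays. Its levels were -3.68, -4.07 and -3.65 with quercetin, -3.96, -4.04 and -3.51 in hypoxia, and 0.57, 1.74 and 0.15 in normoxia. The hypoxic arrays of both groups overlapped fully, and all were above background. Hypoxia minus normoxia was -4.66 ± 0.37 and the difference with quercetin 0.03, with an interval from -0.81 to 0.88.

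Ccl2, which attracts monocytes, had levels of 5.06, 5.11 and 4.55 with quercetin, 5.28, 5.45 and 5.58 in hypoxia, and 7.42, 8.18 and 6.98 in normoxia. The 3 quercetin arrays all lay below the 3 hypoxia arrays, the only such case among the 35. The difference in hypoxia was -2.09 ± 0.29 and that with quercetin -0.53, with an interval from -1.19 to 0.13. On the deposited values the quercetin difference of Ccl2 was -0.22. Tnfrsf9, a co-stimulatory receptor known from T cells, had levels of -3.28, -3.32 and -3.28 with quercetin, -2.92, -3.23 and -3.33 in hypoxia, and -0.71, 0.15 and -1.14 in normoxia. Its hypoxic arrays overlapped, and the difference in hypoxia was -2.59 ± 0.28.

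Several further inflammatory genes were at or below background in hypoxia. Cxcl6, a chemokine for neutrophils, had levels of -2.11, -1.08 and -3.47 in normoxia and was not above background on any of the 6 hypoxic arrays. It was at least 5.85-fold lower in hypoxia. Il7, a growth factor of lymphocytes, was at least 3.72-fold lower, Cd180, a Toll-like receptor relative, at least 2.86-fold lower, and Il23a, a subunit of interleukin 23, at least 1.40-fold lower. For these 4 genes no quercetin difference can be given, because neither hypoxic group was measured above background. Cd200r1, an inhibitory receptor of myeloid cells, was at least 3.31-fold lower in hypoxia and was above background on 1 of the 3 quercetin arrays. Lacc1, an enzyme known from macrophages, had levels of -6.00, -4.88 and -4.43 with quercetin, -5.18, -5.46 and -5.22 in hypoxia, and -1.97, -2.04 and -2.11 in normoxia. It was above background on 2 quercetin arrays and 1 hypoxia array.

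Il23a, Ccl2, Tnfrsf9 and Cxcl6 were the members on the list of chemokines, cytokines and their receptors, of which 36 other genes were tested. In hypoxia 4 of these were higher and 24 lower, with a median of -1.31, and with quercetin 5 were higher and 18 lower, with a median of -0.35. Ccl3, a macrophage chemokine, fell by 4.94 ± 0.31 in hypoxia (limma adjusted p = 6.96e-06) and by a further 0.88 ± 0.31 with quercetin (limma adjusted p = 0.0380). Pla2g2a was the member on the list of innate immunity and complement, where 5 of 23 others were higher and 12 lower in hypoxia, and 1 was higher and 14 lower with quercetin. Tlr2, a receptor for bacterial lipoproteins, fell by 5.64 ± 0.39 in hypoxia (limma adjusted p = 1.05e-05), and its quercetin difference of -0.51 ± 0.39 did not pass (limma adjusted p = 0.292). Of the 7 leukocyte marker genes tested, 4 were higher and 1 lower in hypoxia, and 1 was higher and 4 lower with quercetin. Lyz2, a lysozyme among them, rose by 4.10 ± 0.36 in hypoxia (limma adjusted p = 3.20e-05) and fell by 1.65 ± 0.36 with quercetin (limma adjusted p = 0.00481). The summed leukocyte marker signal was 1.81 to 1.88 with quercetin, 2.18 to 2.31 in hypoxia and 2.30 to 2.58 in normoxia, and the part of leukocytes in these levels was not tested. In such bulk samples, fewer cells of a type and less RNA per cell cannot be told apart.

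The interferon-induced genes Ifit2, Oasl2 and Igtp were also lower in hypoxia. Oasl2, of the oligoadenylate synthetase family, had levels of -4.76, -3.33 and -4.23 with quercetin, -4.27, -4.21 and -4.17 in hypoxia, and -1.17, -0.68 and -1.05 in normoxia. The hypoxic arrays overlapped, with quercetin replicate 1 and hypoxia replicate 3 not above background. Ifit2, which limits viral translation, was at least 6.19-fold lower in hypoxia, and Igtp, a GTPase induced by interferon gamma, at least 1.96-fold lower. A second and brighter Ifit2 probe, above background on all 9 arrays, differed by -3.11 in hypoxia and by -0.49 with quercetin. Of the 20 other genes tested on the interferon and antigen presentation list, 7 were higher and 9 lower in hypoxia, and with quercetin 12 were lower. One of them, Gbp2, a guanylate-binding protein, fell by 1.75 ± 0.21 in hypoxia (limma adjusted p = 0.000150) and by a further 1.16 ± 0.21 with quercetin (limma adjusted p = 0.00166).

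**Figure D3:**
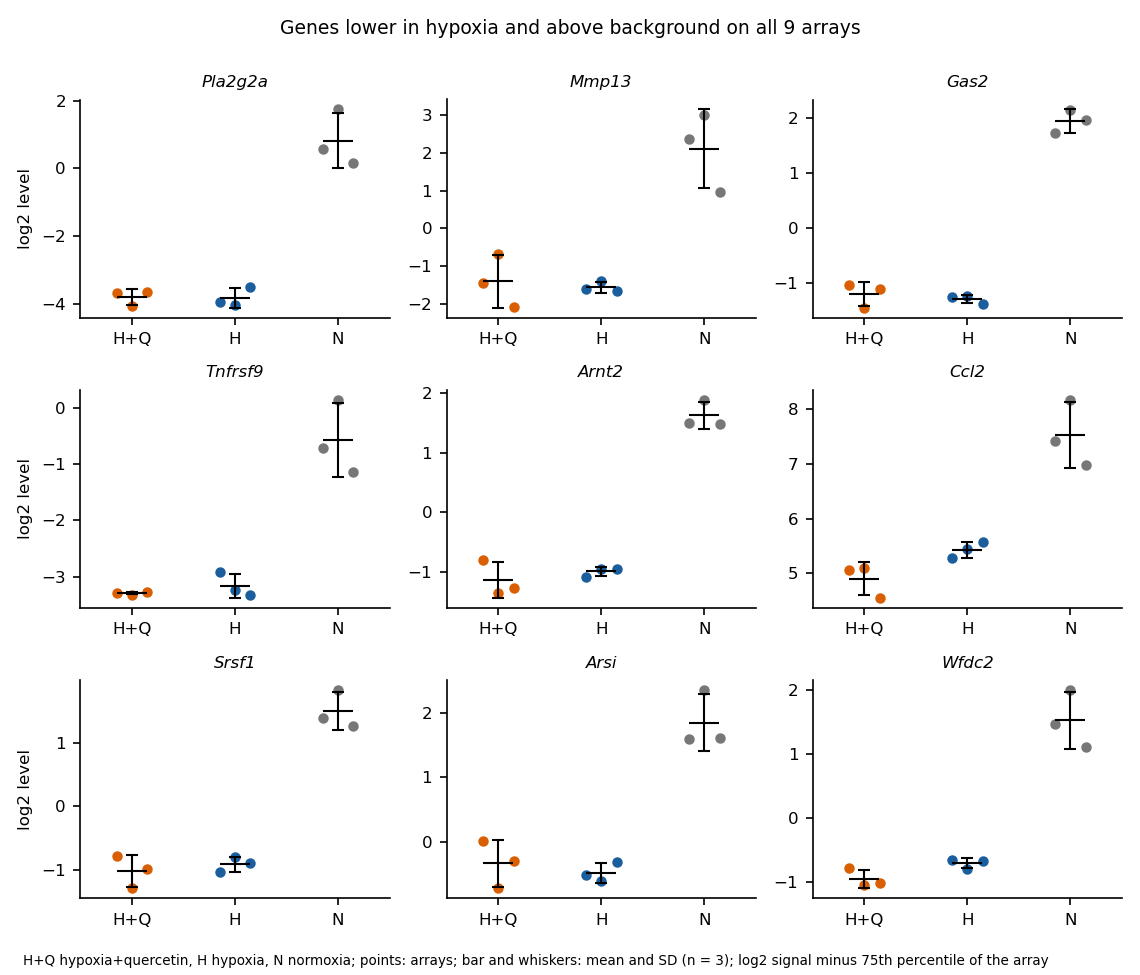
Log2 level on each array (points), with mean and SD of 3 arrays (bar and whiskers), of the 9 genes lower in hypoxia that were above background on all 9 arrays, for hypoxia+quercetin (H+Q), hypoxia (H) and normoxia (N); each panel has its own scale. The 6 hypoxic arrays lie below the normoxia arrays in all 9 panels, and in the Ccl2 panel the quercetin arrays lie below the hypoxia arrays.

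Matrix genes were represented by a proteoglycan and a pair of proteases. Dcn encodes decorin, a small proteoglycan that binds collagen and TGF-beta, and had levels of -4.99, -3.50 and -4.19 with quercetin, -4.52, -3.76 and -3.90 in hypoxia, and 1.05, -0.11 and -0.41 in normoxia. Hypoxia minus normoxia was -4.24 ± 0.46, and the hypoxic arrays overlapped. The Dcn probe was above background on 2 of the 3 arrays of each hypoxic group, so background signals enter this difference. Mmp13, collagenase 3, had levels of -1.45, -0.68 and -2.07 with quercetin, -1.61, -1.39 and -1.66 in hypoxia, and 2.37, 2.99 and 0.97 in normoxia. The quercetin arrays of Mmp13 surrounded the hypoxia arrays, and its interval for quercetin ran from -1.01 to 1.32. Mmp12, the macrophage elastase, was above background only in normoxia and was at least 1.93-fold lower in hypoxia.

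Of the other genes tested on the matrix list, 25 of 47 were higher and 13 lower in hypoxia, and 3 were higher and 27 lower with quercetin. Epyc, a relative of decorin, fell by 5.28 ± 0.22 in hypoxia (limma adjusted p = 1.94e-06) and rose by 1.60 ± 0.22 with quercetin (limma adjusted p = 0.000411). Decorin also stood on the list of fibroblast markers, of which 3 of 8 others were higher and 3 lower in hypoxia. With quercetin 6 of the 8 were lower, with a median of -0.84, among them Fap at -2.28 ± 0.11 (limma adjusted p = 4.00e-06) and Dpt at -1.28 ± 0.42 (limma adjusted p = 0.0296). Lum, lumican, fell by 3.62 ± 0.28 in hypoxia (limma adjusted p = 1.70e-05), and its quercetin difference was 0.49 ± 0.28 (limma adjusted p = 0.165). The summed fibroblast marker signal was 8.79 to 9.08 with quercetin, 9.34 to 9.53 in hypoxia and 8.86 to 9.01 in normoxia. The part of fibroblasts in the result was not tested. Of the 28 other proteases and inhibitors, 4 were higher and 12 lower in hypoxia, and 6 were higher and 13 lower with quercetin. Mmp16, a membrane-bound protease, fell by 2.23 ± 0.12 in hypoxia (limma adjusted p = 3.91e-06) and by a further 0.64 ± 0.12 with quercetin (limma adjusted p = 0.00214).

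Wfdc2, a secreted protein with protease inhibitor domains, and Arsi, an arylsulfatase, were measured on all 9 arrays. Wfdc2 had levels of -0.79, -1.05 and -1.02 with quercetin, -0.66, -0.80 and -0.67 in hypoxia, and 1.46, 2.00 and 1.11 in normoxia. Arsi had levels of 0.01, -0.72 and -0.29 with quercetin, -0.52, -0.62 and -0.31 in hypoxia, and 1.59, 2.36 and 1.61 in normoxia. In both genes the hypoxic arrays overlapped and lay below normoxia, by 2.23 ± 0.20 for Wfdc2 and 2.33 ± 0.25 for Arsi.

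Transcription and RNA processing were represented by Arnt2, Gli3, Pparg and Srsf1. Arnt2, a relative of the ARNT protein that pairs with HIF alpha subunits, had levels of -0.79, -1.35 and -1.26 with quercetin, -1.07, -0.94 and -0.95 in hypoxia, and 1.51, 1.89 and 1.49 in normoxia. The difference in hypoxia was -2.62 ± 0.17 and that with quercetin -0.14, with an interval from -0.53 to 0.24. A second and dimmer probe for the same Arnt2 transcript differed by -0.39 in hypoxia and by -1.25 with quercetin, so the 2 probes gave different patterns. Srsf1, a splicing factor, had levels of -0.78, -1.29 and -0.99 with quercetin, -1.04, -0.81 and -0.89 in hypoxia, and 1.39, 1.83 and 1.27 in normoxia. Its hypoxic arrays overlapped, and the difference in hypoxia was -2.41 ± 0.18. Pparg, a nuclear receptor of lipid metabolism, was above background only in normoxia and was at least 1.82-fold lower in hypoxia. Gli3, a transcription factor of hedgehog signalling, differed by -1.75 ± 0.30 in hypoxia, and 2 brighter Gli3 probes differed by -1.73 and -1.53. The selected Gli3 probe was above background on 2 of the 3 arrays of each hypoxic group.

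Receptors and local mediators among the lower genes were mostly near background in hypoxia. Igfbp5, which binds insulin-like growth factors, was at least 5.35-fold lower in hypoxia. Its levels were -6.12, -4.91 and -5.40 with quercetin and -2.51, -2.10 and -2.43 in normoxia, and 2 of the quercetin arrays but no hypoxia array were above background. A second Igfbp5 probe also met the selection and was above background on only 3 arrays. Hpgd, which degrades prostaglandins, was at least 2.70-fold lower in hypoxia, and Lpar4, a receptor for lysophosphatidic acid, at least 1.60-fold lower. Htr2a, the serotonin 2A receptor, was at least 1.48-fold lower by the probe selected. The 2 brighter Htr2a probes, above background on all 9 arrays, differed by -1.37 and -1.32 in hypoxia and by 0.53 and 0.49 with quercetin. Gpr37, an orphan receptor, was at least 1.06-fold lower in hypoxia.

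Lpar4 and Hpgd were on the prostanoid and lipid mediator list, where 3 of 21 others were higher and 7 lower in hypoxia, and 5 were higher and 12 lower with quercetin. Igfbp5 was on the list of growth factors and receptors, where 24 of 54 others were higher and 17 lower in hypoxia, and 15 were higher and 24 lower with quercetin. Pparg was on the metabolic list, where 9 of 46 others were higher and 19 lower in hypoxia, and 7 were higher and 16 lower with quercetin. Acaca, Fasn and Cpt1b had the smallest adjusted p for hypoxia on that list and differed by -2.18, -1.89 and -2.05 in hypoxia. With quercetin they differed by 2.00, 1.93 and 1.86, each at an adjusted p under 0.05 in limma. Slc7a5, an amino acid transporter next in that order, fell by 1.78 ± 0.15 in hypoxia (limma adjusted p = 2.60e-05). Its quercetin difference of -0.21 ± 0.15 did not pass (limma adjusted p = 0.274). No contractile, nitric oxide, cell cycle or antioxidant gene of the lists was among the 49. These lists hold 31 to 53 genes each, and with 49 of 15812 named genes selected, lists of that length would mostly hold none.

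Gas2, an actin- and microtubule-associated protein named for its induction at growth arrest, was measured on all 9 arrays. Its levels were -1.05, -1.45 and -1.11 with quercetin, -1.25, -1.25 and -1.38 in hypoxia, and 1.73, 2.15 and 1.96 in normoxia. The difference in hypoxia was -3.24 ± 0.14 and that with quercetin 0.09, with an interval from -0.24 to 0.42. A second and dimmer probe for the same Gas2 transcript differed by -0.66 in hypoxia and by -1.08 with quercetin. Scgb3a2, a secretory protein of airway epithelium, was above background only in normoxia and was at least 1.66-fold lower in hypoxia. Its normoxia levels were -4.09, -4.21 and -3.79.

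The remaining lower genes were Lrrc39, known from the M-band of striated muscle, Slc9a9, an endosomal sodium-proton exchanger, Colec12, a scavenger receptor, Fmo4, a flavin monooxygenase, Pcdh11x, a protocadherin, Capn6, a calpain relative, and Plac8, a small cysteine-rich protein. Lrrc39 was at least 3.66-fold, Fmo4 at least 1.97-fold and Plac8 at least 1.54-fold lower in hypoxia. Colec12 differed by -2.57 ± 0.29, Slc9a9 by -1.80 ± 0.28 and Pcdh11x by -2.07 ± 0.33 in hypoxia. Background signals enter these 3 differences. Of the 3 hypoxia arrays, 1 was above background for Colec12, 2 for Slc9a9 and 1 for Pcdh11x. Of the 3 quercetin arrays, 1, 1 and 2 were. These 3 genes had further probes. A second Pcdh11x probe differed by 0.17 in hypoxia. With quercetin, 2 brighter Slc9a9 probes differed by -0.45 and -1.08, against -0.40 for the probe selected. A Colec12 probe above background on all 9 arrays differed by -0.41 with quercetin, against -0.27 for the probe selected. For Capn6 no fold is given, because its normoxia mean did not exceed the lowest signal above background averaged over the hypoxia arrays. Its normoxia mean of -5.01 exceeded that signal on hypoxia replicates 1 and 2 but not on replicate 3.

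**Figure D4:**
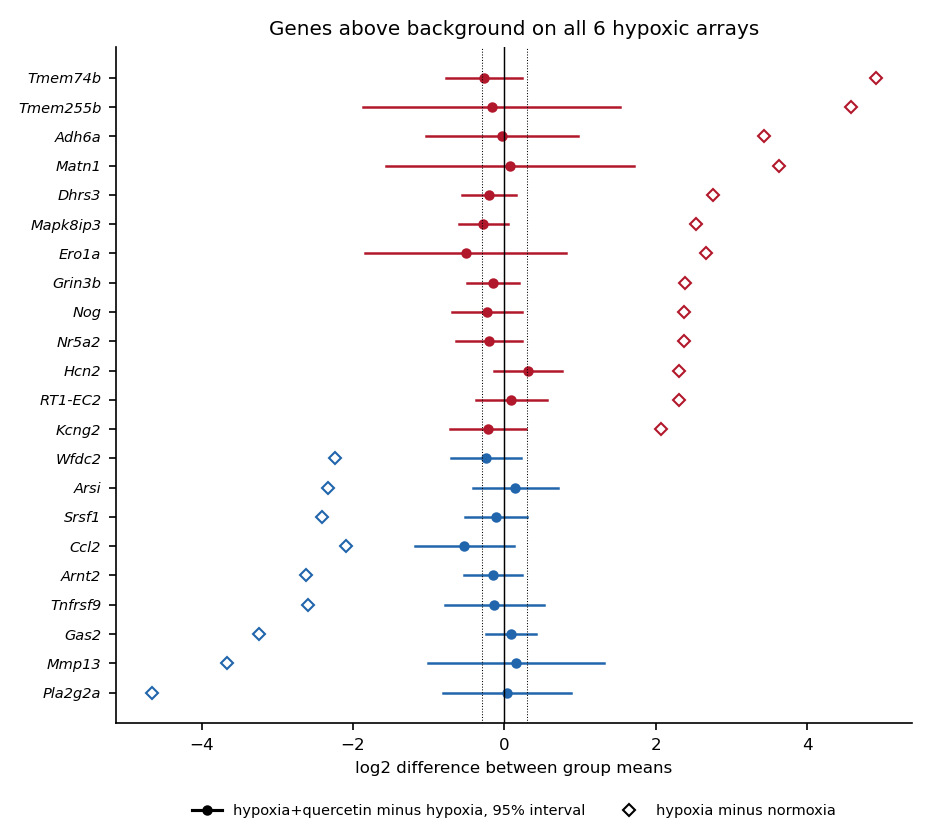
Log2 difference between group means for 22 of the 23 genes above background on all 6 hypoxic arrays: filled points with bars are hypoxia+quercetin minus hypoxia with its 95% interval, open diamonds hypoxia minus normoxia, red genes higher and blue genes lower in hypoxia, and dotted lines mark -0.3 and 0.3. Every interval crosses 0, and the widest ones belong to Tmem255b, Matn1 and Ero1a. The intervals rest on a spread pooled over all groups, normoxia included.

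How well the low levels were measured differed between the directions. All 14 higher genes were above background on all 6 hypoxic arrays, and 11 of them on all 9 arrays. Of the 35 lower genes, 9 were above background on all 9 arrays, 13 on none of the 6 hypoxic arrays and 13 on 1 to 5 of them. In the 13 genes that were dark on all 6, hypoxia replicate 3 was the highest hypoxia array in 10 and quercetin replicate 1 the highest quercetin array in 9, and these were the arrays with the fewest probes above background. Without both arrays, an alternative chosen after seeing the data, 51 genes met the selection and 33 of the 49 were among them.

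The selection also depended on single arrays and on the probe. With each of the 9 arrays left out in turn, 41 to 81 genes met it, and 14 of the 49 met it every time, namely Tmem255b, Adh6a, Matn1, Dhrs3 and RT1-EC2 among the higher genes and Srsf1, Tnfrsf9, Gas2 and Pla2g2a among the lower genes measured on all 6 hypoxic arrays. The other 5, Capn6, Scgb3a2, Il7, Cd180 and Cxcl6, were above background on none of those 6 arrays, so their quercetin differences are between background signals. The highest count, 81, came without normoxia replicate 3, and all 49 genes were among these 81. Tmem255b, Dhrs3, Gas2 and Pla2g2a met the selection in all of these settings, on the scanner scale, after normexp correction with quantile normalization and by their brightest probe.

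Further probes were on the array for 17 of the 49 genes. Of the 27 further probes, 11 in 8 genes were above background on all 9 arrays, and all 11 differed in the same direction as the selected probe in hypoxia. None of the 11 met the selection, and the 1 of the 27 that did, for Igfbp5, was above background on 3 arrays. In 9 genes a further probe was brighter than the selected one. Kcng2 had 2 further probes for the same transcript, which differed by 0.63 and 1.33 in hypoxia, against 2.08 for the probe selected. Mapk8ip3 had a brighter probe that differed by 1.42 in hypoxia and by -0.76 with quercetin.

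**Figure D5:**
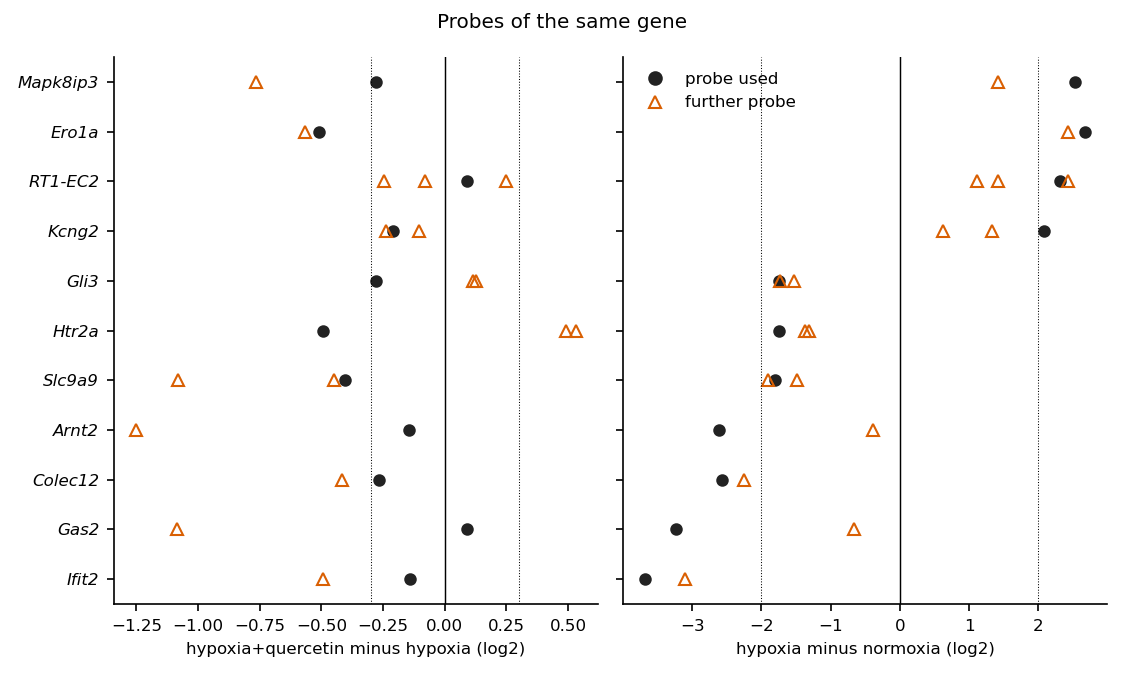
Log2 differences of the selected probe (filled circles) and of further probes of the same gene above background on at least 7 arrays (open triangles), for hypoxia+quercetin minus hypoxia (left) and hypoxia minus normoxia (right); dotted lines mark the thresholds of the selection. For Arnt2 and Gas2 the further probe lies at -0.39 and -0.66 in hypoxia and below -1 with quercetin. For Htr2a the further probes lie on the opposite side of 0 from the selected probe with quercetin.

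Near the thresholds the genes formed a continuum. Just inside the hypoxia threshold on the deposited values lay Kcng2 at 2.03 and Pcdh11x at -2.11, and just outside it Lmo2 at -1.99, Cd93 at -1.98 and Alpk2 at -1.96. Just inside the quercetin threshold lay Htr2a, Lacc1 and Tmem74b, each at -0.29, and just outside it Dclk1 at 0.31 and Tm4sf1 and Itga7, each at -0.31.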

How the data were processed

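Agilent Feature Extraction 10.7.3.1 made the background-subtracted spot intensity values from 1-colour scans, per the file headers. The deposited value table holds log2 values with a median of 5.71 in every column. The sources used here do not give how the authors made it. It correlated at 0.991 to 1.000 with the scanner values and was used for the selection only. For a gene with several qualifying probes the one with the highest mean was taken.

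All other values come from the scanner intensity, as log2 minus the array's 75th percentile, without 1639 control spots and with 71 to 148 outlier spots per array set missing. Names were updated through RefSeq (GRCr8). One limma fit (limma 3.58.1, R 4.3.3) covered all 9 arrays and the 26646 of 41012 probes (65.0%) above background on every array of 1 group or more, with 6 residual and 2.34 prior degrees of freedom. P-values were two-sided with Benjamini-Hochberg adjustment over all 26646 probes. The fit was tested on simulated data with independent noise and no slide effect, so that test does not cover differences between slides. The number of arrays limits the precision.

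Where a gene was above background on no array of its dimmer group, the fold is the brighter mean over the dimmer group's mean floor. The floor of an array is the higher of the gene's own signal and the lowest signal above background there. That lowest signal was -5.43, -5.16 and -3.71 on hypoxia replicates 1, 2 and 3, so replicate 3 lowers these bounds for the genes lower in hypoxia.

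The genes and lists were chosen with earlier results of these data known. The rule on named genes allowed values per array for the 15 largest rises, the 15 largest falls and up to 6 members per list, and the non-members with the smallest adjusted p per list. Per-array values of other members were added for completeness. Alternatives changed the scaling, background correction, filter, probe choice, thresholds and arrays used. 1 of the 49 genes and 1 of the marker genes are counted in the totals and are not reported here by name.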

Additional observations from a re-analysis of the deposited data

How the results depend on the processing

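The count of genes meeting the selection was 49. It was 19 (4 higher, 15 lower) with normexp and quantile normalization, 81 (9 higher, 72 lower) with spike-in scaling, 20 with probes above background on all 9 arrays, of which 9 lower, and 23 above background on all 6 hypoxic arrays, of which 9 lower, the last chosen after seeing the data. A hypoxia threshold of 1.5 or 2.5 gave 136 or 30 genes, and a quercetin threshold of 0.5 gave 94. Leaving out single arrays gave 41 to 81 genes, 13 to 19 higher and 27 to 63 lower. Other alternatives stayed within 1.5 times, but on the 75th percentile scale 39 of the 49 were shared.

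The median hypoxia difference of the higher genes, 2.46, was 0.86 with normexp and quantile normalization together, 1.95 with spike-in scaling and 2.12 against normoxia replicate 3 alone. That of the lower genes, -2.57, was -0.56 with both together and -3.07 with spike-in scaling. Leaving out single arrays gave 2.36 to 2.59 and -2.75 to -2.35. Spike-in scaling moved the median of all probes tested to -0.42 in hypoxia, against 0.09, with 3162 probes higher and 13344 lower, against 9231 and 7908. Of 637 values of single genes under an alternative, 530 moved by less than 1 SD and none of the hypoxia differences changed sign.

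The replicate block gave 15982 changed probes in hypoxia, against 17139, and 14519 with quercetin, against 15632. Same-numbered arrays did not deviate together (correlations of -0.27 to 0.02, against at most 0.26 for differently numbered arrays). Low correlations cannot exclude that equal numbers mark a shared culture or day, and the labels do not say. With the slide as a block 11570 probes changed in hypoxia. These counts stayed within 1.5 times. The cause of these shifts was not tested.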
